A study of Homo sapiens with 6 samples.

Results

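The HIF (hypoxia-inducible factor) pathway, its target genes and the enzymes of glycolysis were followed with and without knockdown of UBE2S in A375 cells, a widely used line from a human melanoma. The 47 genes were listed by symbol from their roles in oxygen sensing, in the transcriptional response to hypoxia and in the conversion of glucose to lactate. A gene counted as measured when the array annotation gave at least 1 probe set with that symbol alone, and its value is the mean of those probe sets. On this rule 43 of the 47 genes were measured, out of 18132 genes on the array, by 142 probe sets. CA9 and SLC16A3 were not analysed here, nor were EGLN2 and SLC2A3, whose probe sets are assigned to 2 genes each.

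The knockdown cells carried a lentiviral short hairpin RNA against UBE2S, a ubiquitin-conjugating enzyme of the anaphase-promoting complex. The other group were control A375 cells, for which the labels name no hairpin or vector, and they do not say whether the knockdown cells were a clone or a pool. Each group held 3 biological replicates with 1 Affymetrix array each. The labels do not say that these came from separate cultures, so p-values measure only the spread between these samples, and the number of arrays limits the precision.

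Under normal oxygen the prolyl hydroxylases EGLN1, EGLN2 and EGLN3 modify the HIF alpha subunits HIF1A and EPAS1, which lets VHL, the substrate receptor of a ubiquitin ligase, mark them for destruction. When oxygen is short the alpha subunits escape, pair with ARNT and bind a short DNA element near genes for angiogenesis, pH control, mitophagy, collagen modification, glucose uptake and glycolysis. UBE2S has been described, under its older name E2-EPF ubiquitin carrier protein, as an enzyme that ubiquitinates VHL. HIF and VHL are controlled largely as proteins, which were not measured here, and melanoma cells are known for high glycolytic flux even with oxygen present.

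All values are deposited log2 expression values from which each probe set's median over the 6 arrays had been removed, so they show differences between arrays and no level, and every change is knockdown minus control on that log2 scale. UBE2S itself averaged -1.06 ± 0.06 (SD, n = 3) in knockdown arrays and 1.03 ± 0.03 (SD, n = 3) in control arrays, which left 23.5% of the control signal. Its 1 probe set is not of the _at kind, the only kind counted here as unshared. A gene was called changed at an adjusted p under 0.05 in limma, Benjamini-Hochberg adjusted over all genes. Quantile normalization, which RMA includes, sets the arrays to a common distribution, so changes are relative to the array as a whole. Spike-in transcripts added for hybridization were 0.168 higher in knockdown arrays and poly-A spike-ins were 0.098 higher, without overlap between the groups. The 3' minus 5' difference of the ACTB control probe sets was 0.191 higher in knockdown arrays, also without overlap, and that of GAPDH was 0.023 higher with overlap. The part of spike-ins and RNA integrity in the results below was not tested beyond the rescaling given with them. Levels of melanocyte markers could not be checked, since levels had been removed. The rounding of the values shows, however, whether a probe set lay above 8 on the log2 scale before centring, here called the high signal class. In that class were probe sets of 2 of 8 melanocyte markers, S100B and SOX10, and of 0 of 14 markers of leukocytes, fibroblasts, epithelium and endothelium, although 4 of 23 background control probe sets were in it too. Of all 18132 genes 6486 had such a probe set, a larger share than among the melanocyte markers. MITF, PMEL, MLANA, TYR, TYRP1 and S100A1 had none, so the class does not settle the cell type. Among the melanocyte markers MITF fell by 0.72, S100B rose by 1.09 and TYRP1 by 0.22, and among the others DCN fell by 0.23, KRT14 by 0.46 and VWF rose by 0.16. The part of these shifts in the results was not tested.

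The HIF, hypoxia and glycolysis genes moved in both directions, and none of them by as much as 2-fold. Of the 43 measured genes, 19 fell and 12 rose, and 12 did not pass the test. Over all genes 18.6% fell and 21.4% rose, together 40.1%, against 72.1% of these genes. Genes with a probe set in the high signal class were called more often, in 59.6% of cases (30.7% lower and 28.9% higher), and of the 32 genes here that have such a probe set 25 were called (78.1%), 17 lower and 8 higher. With high-class probe sets alone 28 of these 32 were called, where 68.5% of all such genes were. The median change was -0.06, beside -0.00 over all genes, and the median absolute change 0.21 beside 0.11 for all genes. In 34 of the 43 genes the 3 knockdown arrays did not overlap the 3 control arrays, which was so for 50% of all genes. Among genes with a probe set in the high signal class this held for 28 of the 32 here and 72.2% of all. Leaving out each array in turn kept the call of 30 of the 31 called genes, the exception being VEGFA.

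**Figure D1:**
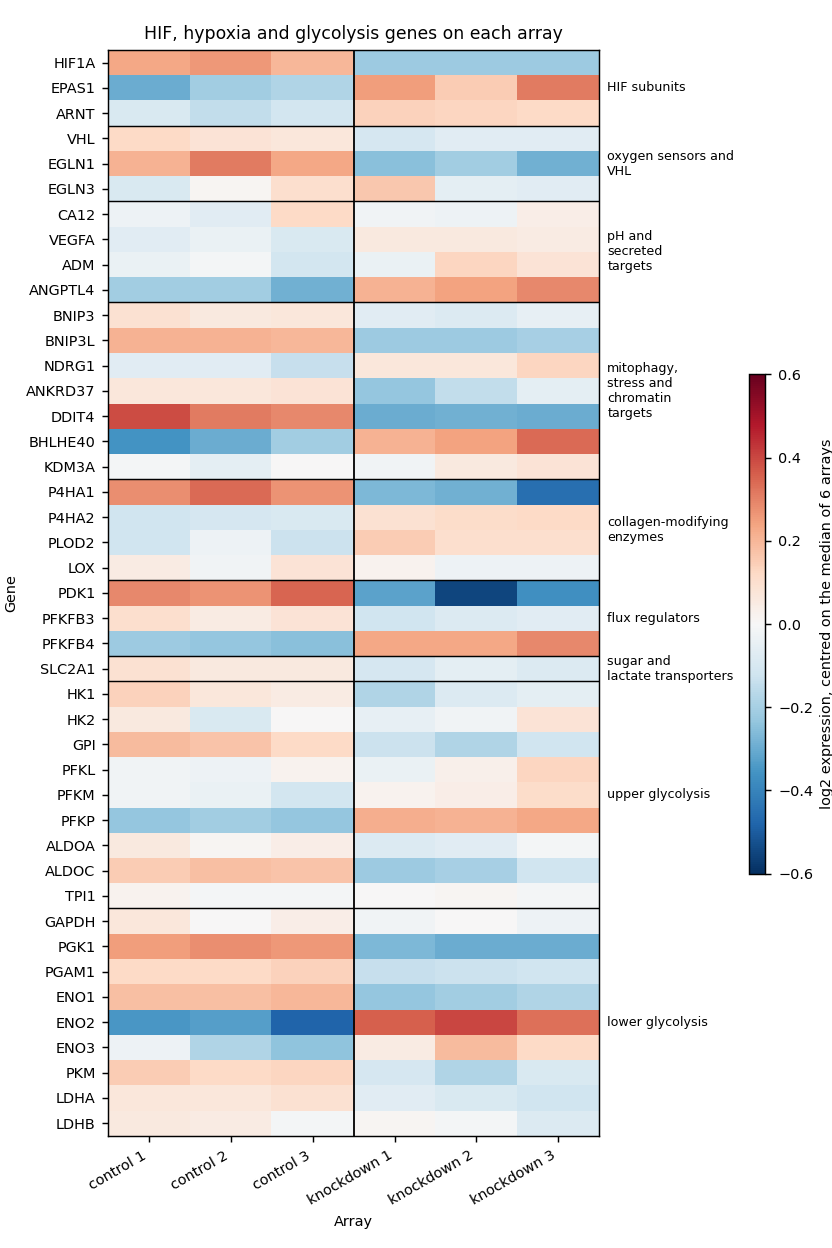
Heat map of the 43 measured genes (rows, grouped by role) on the 3 control and 3 knockdown arrays (columns), where colour gives the deposited log2 value, with 0 as a probe set's median over the arrays. DDIT4, P4HA1, PDK1, PGK1 and HIF1A are above 0 on every control array and below 0 on every knockdown array, while ENO2, BHLHE40, ANGPTL4, EPAS1 and PFKFB4 run the other way.

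The HIF subunits split. HIF1A, the alpha subunit that drives the acute response, stood at -0.22 on each of the 3 knockdown arrays and at 0.23, 0.26 and 0.20 on the control arrays. It fell by 0.45 (SE 0.03, adjusted p = 2.63e-05), to 73.2% of the control signal, and its 8 probe sets, all of the high signal class, lay between -0.50 and -0.40. EPAS1, the second alpha subunit (HIF-2 alpha), which takes over at longer exposure and in some tumours, read 0.25, 0.15 and 0.31 on the knockdown arrays against -0.30, -0.21 and -0.18 on the controls. No knockdown array of EPAS1 came near a control array, and the gene rose by 0.47 (SE 0.05, adjusted p = 2.04e-04). Its 2 probe sets gave 0.78 and 0.16, neither in the high signal class, and the smaller one did not pass the test over probe sets (adjusted p = 0.186), so the size of the rise is uncertain. ARNT, the beta subunit that both alphas need to bind DNA, had 0.14, 0.13 and 0.12 in knockdown arrays and -0.09, -0.15 and -0.11 in controls. ARNT rose by 0.25 (SE 0.03), with 5 probe sets between 0.19 and 0.28, but with hybridization spike-in centring its change was 0.08 and did not pass the test (adjusted p = 0.214).

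Of the genes for proteins that hold HIF in check, EGLN1 and VHL fell and EGLN3 did not pass the test. EGLN1, the main prolyl hydroxylase under normal oxygen, gave -0.25, -0.21 and -0.29 in knockdown arrays and 0.21, 0.31 and 0.23 in controls, and fell by 0.50 (SE 0.04, adjusted p = 4.57e-05). Its 3 probe sets, all shared kinds in the high signal class, lay between -0.55 and -0.44. VHL stood at -0.10, -0.07 and -0.07 after knockdown and at 0.12, 0.08 and 0.07 in the controls. The groups of VHL did not overlap, and the fall of 0.17 (SE 0.04, adjusted p = 0.00481) was found by both probe sets (-0.21 and -0.14). EGLN3, the hydroxylase that is itself a hypoxia target, scattered from -0.07 to 0.16 in knockdown arrays and from -0.09 to 0.10 in controls. Its change of 0.00 has a 95% interval from -0.17 to 0.18, and its 3 probe sets were all of the low signal class, so a change within that interval was not detectable.

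**Figure D2:**
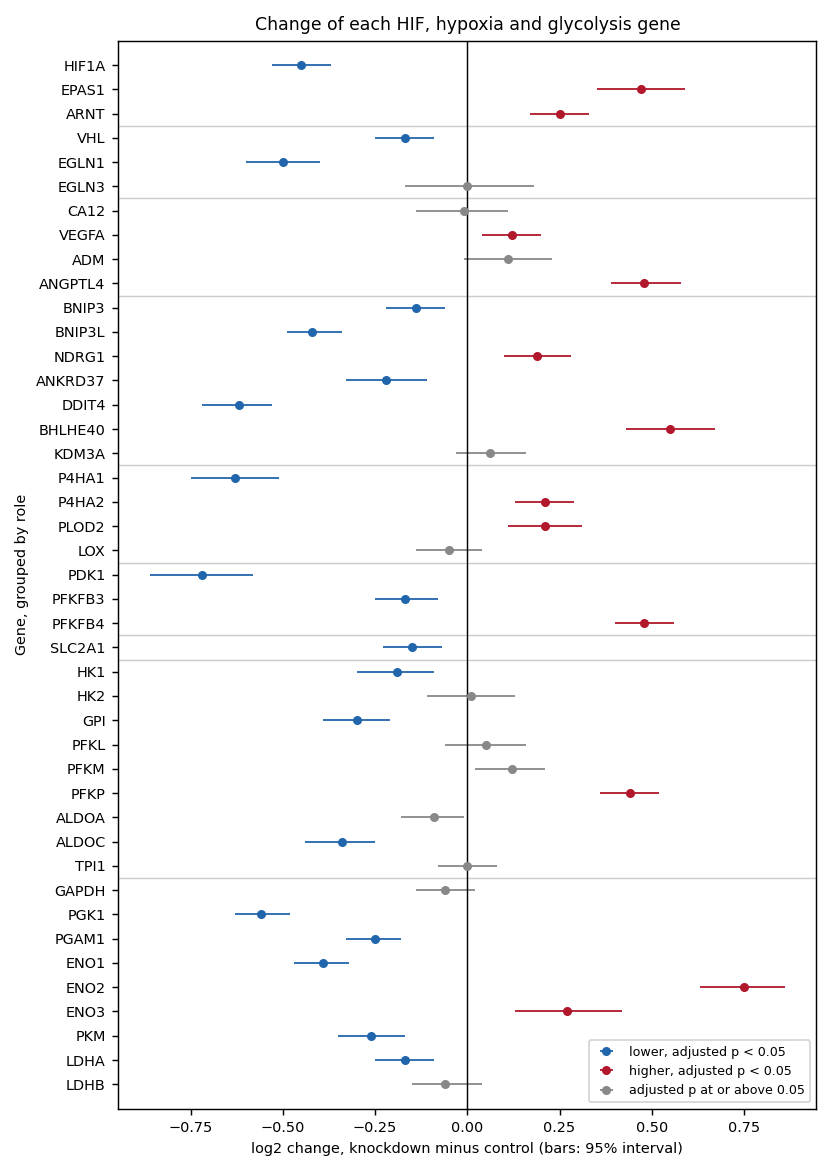
Change of each of the 43 genes (knockdown minus control, log2) with its 95% interval from limma, grouped by role from the HIF subunits at the top to lower glycolysis at the bottom. Blue genes fell (19), red genes rose (12) and grey genes did not pass the test (12), and the extremes are PDK1 at -0.72 and ENO2 at 0.75.

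Among targets for pH control and secretion, 2 of 4 measured rose and the others did not pass the test, a share of 50% near the 40.1% of all genes. ANGPTL4, a secreted inhibitor of lipoprotein lipase, read 0.21, 0.24 and 0.29 on knockdown arrays and -0.21, -0.21 and -0.29 on controls. Its rise of 0.48 (SE 0.04, adjusted p = 5.12e-05) rests on 1 probe set, in the high signal class. VEGFA, the main angiogenic growth factor, had 0.06, 0.06 and 0.05 against -0.07, -0.04 and -0.09, close but without overlap. This rise of 0.12 (SE 0.03, adjusted p = 0.0221) was the least stable of the 31 calls: it was lost without knockdown replicate 1 or 2 and without control replicate 1 or 3 (adjusted p between 0.0584 and 0.0702), with the replicate number as a block (adjusted p = 0.0626) and with poly-A spike-in centring (0.02), and it turned to -0.05 with hybridization spike-in centring. Of the 10 probe sets of VEGFA, which ranged from -0.04 to 0.29, 5 passed the test over probe sets, all as rises. ADM, a vasodilator peptide, stood at 0.11 (95% interval -0.01 to 0.23), and the membrane carbonic anhydrase CA12 at -0.01 (95% interval -0.14 to 0.11), and neither passed the test.

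Targets that act in mitophagy, stress and chromatin were divided, with 4 falls and 2 rises among 7 (85.7%, beside 40.1% of all genes), of which the calls of BNIP3 and NDRG1 changed with the probe sets used. DDIT4, an inhibitor of mTORC1 induced by hypoxia, stood at -0.30, -0.29 and -0.30 in knockdown arrays and at 0.39, 0.31 and 0.29 in controls. The fall of DDIT4 by 0.62 (SE 0.04, adjusted p = 1.04e-05) left 64.9% of the control signal. BHLHE40, a transcriptional repressor that also works in the circadian clock, read 0.21, 0.24 and 0.34 against -0.36, -0.30 and -0.21, the mirror image of DDIT4, and rose by 0.55 (SE 0.05). DDIT4 and BHLHE40 were each read by 1 probe set, that of BHLHE40 below the high signal class. BNIP3L, a receptor that directs mitochondria to autophagosomes, kept within a narrow range in each group, at -0.22, -0.22 and -0.20 against 0.21, 0.21 and 0.20. BNIP3L fell by 0.42 (SE 0.03), and its 6 probe sets, each in the high class, lay between -0.53 and -0.32. The related receptor BNIP3 fell by 0.14 (SE 0.03, adjusted p = 0.011), but its 2 probe sets disagreed. The shared one, of the high signal class, gave -0.41 (adjusted p = 1.73e-04 over probe sets), and the unshared one, below that class, gave 0.13 (adjusted p = 0.0419), so the direction of BNIP3 is uncertain. ANKRD37, an ankyrin repeat protein, fell by 0.22 (SE 0.05), carried by 1 probe set at -0.40 while the other, of the low signal class, gave -0.04. NDRG1, a differentiation and stress protein, rose by 0.19 (SE 0.04), a call lost under both spike-in centrings (0.09 with poly-A and 0.02 with hybridization spike-ins). For the histone demethylase KDM3A the mean change of 0.06 hid probe sets that moved in opposite directions, 2 of the high signal class at 0.22 and 0.29 and 1 below it at -0.32.

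The collagen-modifying enzymes also split within 1 family. P4HA1, the catalytic subunit of prolyl 4-hydroxylase that stabilizes the collagen helix, read -0.27, -0.29 and -0.45 on knockdown arrays and 0.28, 0.34 and 0.27 on controls, and fell by 0.63 (SE 0.05, adjusted p = 4.42e-05). P4HA2, the alternative catalytic subunit, had 0.09, 0.11 and 0.12 against -0.12, -0.10 and -0.09 and rose by 0.21 (SE 0.03). P4HA1 and P4HA2 were each read by 1 probe set, so their split rests on 1 probe set against 1. PLOD2, the lysyl hydroxylase of collagen cross-links, stood at 0.15, 0.10 and 0.10 against -0.12, -0.03 and -0.13. PLOD2 rose by 0.21 (SE 0.04), with probe sets from 0.03 to 0.45. With hybridization spike-in centring the rises of P4HA2 and PLOD2 both shrank to 0.04 and did not pass the test, and with poly-A spike-ins both stood at 0.11, which PLOD2 did not pass (adjusted p = 0.0506) and P4HA2 did. LOX, the secreted lysyl oxidase, stood at -0.05 (95% interval -0.14 to 0.04).

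Regulators of the flux into and out of glycolysis held the largest fall. PDK1, the kinase that shuts pyruvate dehydrogenase and so keeps pyruvate out of mitochondria, stood at -0.32, -0.55 and -0.37 in knockdown arrays and at 0.29, 0.27 and 0.35 in controls. Knockdown replicate 2 was the lowest, and the fall of 0.72 (SE 0.06, adjusted p = 4.32e-05) left 60.8% of the control signal, with the 2 probe sets at -0.94 and -0.50. The bifunctional enzymes PFKFB3 and PFKFB4 make and break fructose 2,6-bisphosphate, the activator of phosphofructokinase. PFKFB4 read 0.23, 0.23 and 0.29 against -0.22, -0.23 and -0.25 and rose by 0.48 (SE 0.04, adjusted p = 2.24e-05), with all 4 probe sets between 0.40 and 0.60. PFKFB3 read -0.12, -0.08 and -0.07 against 0.10, 0.05 and 0.08 and fell by 0.17 (SE 0.04). Of its 4 probe sets, which ranged from -0.33 to -0.09, only 1 passed the test over probe sets, and with the _at and _a_at kinds alone PFKFB3 stood at -0.12 and lost its call (adjusted p = 0.149). SLC2A1, the basal glucose transporter GLUT1 and the only sugar carrier of the set that was measured, had -0.10, -0.06 and -0.08 against 0.09, 0.06 and 0.06. It fell by 0.15 (SE 0.03, adjusted p = 0.00758), seen in 3 probe sets of the high signal class (-0.32, -0.23 and -0.13), while the 1 unshared probe set gave 0.08.

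Because HIF binds the core ACGTG or GCGTG of the hypoxia response element, the promoter windows of these genes were searched for these letters on both strands, from 250 bases before to 50 bases after each RefSeq start (GRCh38.p14). CACGTG, the E-box read by MYC and by BHLHE40, contains ACGTG and was counted with it, as 2 matches, 1 on each strand. Windows were held for 42 of the 47 genes, 74 windows in all. ACGTG was found in 41.9% of these windows and in 21.4% of all 35116 windows of the genome table, and either core in 68.9% and 48.4%. Many of the genes were listed for their roles in the response to hypoxia, so these shares describe the list and are no result. Split by the change, either core was in 70.4% of windows of genes that fell, 64.3% of genes that rose and 72% of genes not called. The E-box was in 13.5% of the 74 windows and in 7.26% of all. A match describes letters and does not show a binding site. The 3 genes with the largest changes that hold a match are shown by the 250 bases before their start, 5' to 3' on the gene's strand, with the match in capitals (CACGT is ACGTG on the other strand): ENO2 from chr12:6914330-6914579 on the plus strand, PDK1 from chr2:172555840-172556089 on the plus strand and P4HA1 from chr10:73096867-73097116 on the minus strand.
ENO2: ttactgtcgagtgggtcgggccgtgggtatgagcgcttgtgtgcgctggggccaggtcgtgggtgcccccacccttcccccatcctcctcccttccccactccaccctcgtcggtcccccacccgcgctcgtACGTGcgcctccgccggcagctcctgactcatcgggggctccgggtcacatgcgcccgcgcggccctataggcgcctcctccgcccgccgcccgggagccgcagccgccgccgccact
PDK1: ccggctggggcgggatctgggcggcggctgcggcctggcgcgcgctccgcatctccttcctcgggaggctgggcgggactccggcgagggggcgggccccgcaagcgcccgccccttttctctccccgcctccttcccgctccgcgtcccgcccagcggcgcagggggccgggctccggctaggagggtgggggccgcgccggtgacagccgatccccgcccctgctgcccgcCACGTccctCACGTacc
P4HA1: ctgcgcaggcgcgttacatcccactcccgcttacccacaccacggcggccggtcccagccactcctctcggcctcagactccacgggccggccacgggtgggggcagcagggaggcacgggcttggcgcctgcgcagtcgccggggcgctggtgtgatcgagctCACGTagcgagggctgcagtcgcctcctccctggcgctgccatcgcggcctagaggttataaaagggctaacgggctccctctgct
PDK1 has 2 matches in the window shown, the nearer starting 8 bases before the start site of that window. Its other window, at another RefSeq start, holds neither core. The single matches of P4HA1 and ENO2 begin 86 and 118 bases before their start sites. These 3 genes were picked for holding a match, so that they share it is no result. A window of LDHA has the most ACGTG matches of any single window among the genes (5), but it holds 2 CACGTG, each counted as 2 matches. A window of LOX has 4 matches and 0 CACGTG, so the lead of LDHA rests on this way of counting. HIF1A's own 2 windows hold 1 GCGTG and no ACGTG.

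Of the 18 glycolytic enzymes 8 fell and 3 rose, with a median of -0.08, so 61.1% were called beside 40.1% of all genes. Genes with a probe set in the high signal class were called in 59.6% of cases, near the share of these enzymes. With high-class probe sets alone, which measure 15 of the enzymes, 73.3% were called, where 68.5% of all such genes were. The lean towards falls depended on which enzymes were measured and on the scaling. With the _at and _a_at kinds, which measure 11 of the enzymes, there were 4 falls and 3 rises around a median of 0.01. This was 63.6%, where 36.5% of all genes were called in that setting. These 7 kept the call and direction they had with all probe sets, while ENO1, PGAM1, GPI and LDHA were not measured. With hybridization spike-in centring 13 fell and 2 rose, where 50.7% and 9.73% of all genes did. In upper glycolysis, from hexokinase to triose phosphate, 3 fell and 1 rose of 9, a share of 44.4% that is near that of all genes. PFKP, the platelet isoform of phosphofructokinase, stood at 0.22, 0.21 and 0.23 in knockdown arrays and at -0.23, -0.21 and -0.23 in controls, and rose by 0.44 (SE 0.03, adjusted p = 2.44e-05) on its 1 probe set. The muscle isoform PFKM, at 0.12 (95% interval 0.02 to 0.21, adjusted p = 0.0615), and the liver isoform PFKL, at 0.05 (95% interval -0.06 to 0.16), did not pass the test. ALDOC, the brain isoform of aldolase, read -0.22, -0.20 and -0.12 against 0.15, 0.18 and 0.17 and fell by 0.34 (SE 0.04), as all 5 of its probe sets did. ALDOA, the ubiquitous aldolase, stood at -0.09 (95% interval -0.18 to -0.01, adjusted p = 0.0772). GPI, which turns glucose 6-phosphate into fructose 6-phosphate, had -0.13, -0.18 and -0.12 against 0.19, 0.17 and 0.12 and fell by 0.30 (SE 0.04) on its 1 probe set. HK1, the housekeeping hexokinase, fell by 0.19 (SE 0.05), whereas HK2, the inducible hexokinase, stood at 0.01 (95% interval -0.11 to 0.13) with probe sets of opposite sign (-0.11 and 0.13). TPI1, triose phosphate isomerase, lay between -0.01 and 0.02 on all 6 arrays.

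In lower glycolysis, from GAPDH to lactate, 5 fell and 2 rose of 9 (77.8%). That share stands beside 40.1% of all genes and 59.6% of genes with a probe set in the high signal class. PGK1, the first enzyme of the pathway to yield ATP, stood at -0.27, -0.30 and -0.30 in knockdown arrays and at 0.25, 0.28 and 0.26 in controls. PGK1 fell by 0.56 (SE 0.03, adjusted p = 8.09e-06), to 68.1% of control, and all 9 of its probe sets fell, from -0.82 to -0.27. ENO1, the general enolase, read -0.23, -0.21 and -0.18 against 0.18, 0.18 and 0.20 and fell by 0.39 (SE 0.03, adjusted p = 4.91e-05). ENO2, the neuronal enolase, ran against it with 0.36, 0.40 and 0.33 against -0.35, -0.33 and -0.48, and rose by 0.75 (SE 0.05, adjusted p = 1.35e-05), the largest rise of all 43 genes and a 1.68-fold increase on 1 probe set below the high signal class. ENO3, the muscle enolase, rose by 0.27 (SE 0.06), a call lost under poly-A (0.17) and hybridization (0.10) spike-in centring. PKM, the pyruvate kinase that is predominant in tumours, fell by 0.26 (SE 0.04), where 4 high-class probe sets lay between -0.37 and -0.36 and 2 low-class ones at -0.13 and 0.02. PGAM1, phosphoglycerate mutase, fell by 0.25 (SE 0.03), and LDHA, the lactate dehydrogenase subunit that favours lactate formation, by 0.17 (SE 0.03). Of the 4 probe sets of LDHA, which ranged from -0.28 to -0.10, 2 passed the test over probe sets. LDHB, the subunit that favours pyruvate, stood at -0.06 (95% interval -0.15 to 0.04).

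GAPDH, often taken as a constant reference gene, had -0.02, -0.00 and -0.03 on knockdown arrays and 0.07, 0.00 and 0.04 on controls. Its change of -0.06 (SE 0.04, adjusted p = 0.248) did not pass the test, although the groups did not overlap. With poly-A and hybridization spike-in centring GAPDH was called lower, at -0.16 (adjusted p = 0.0224) and -0.23 (adjusted p = 0.00748). The array's own control probe sets for GAPDH, which stood outside the gene tests, were lower in knockdown arrays without overlap at the 3' end (-0.107), in the middle (-0.125) and at the 5' end (-0.130). Only probe sets of the _s_at and _x_at kinds, which the array names as shared or prone to cross-hybridization, read 9 of the genes. These were ALDOA, EGLN1, ENO1, GAPDH, GPI, LDHA, P4HA1, PGAM1 and TPI1. For these, signal from related transcripts cannot be told apart.

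**Figure D3:**
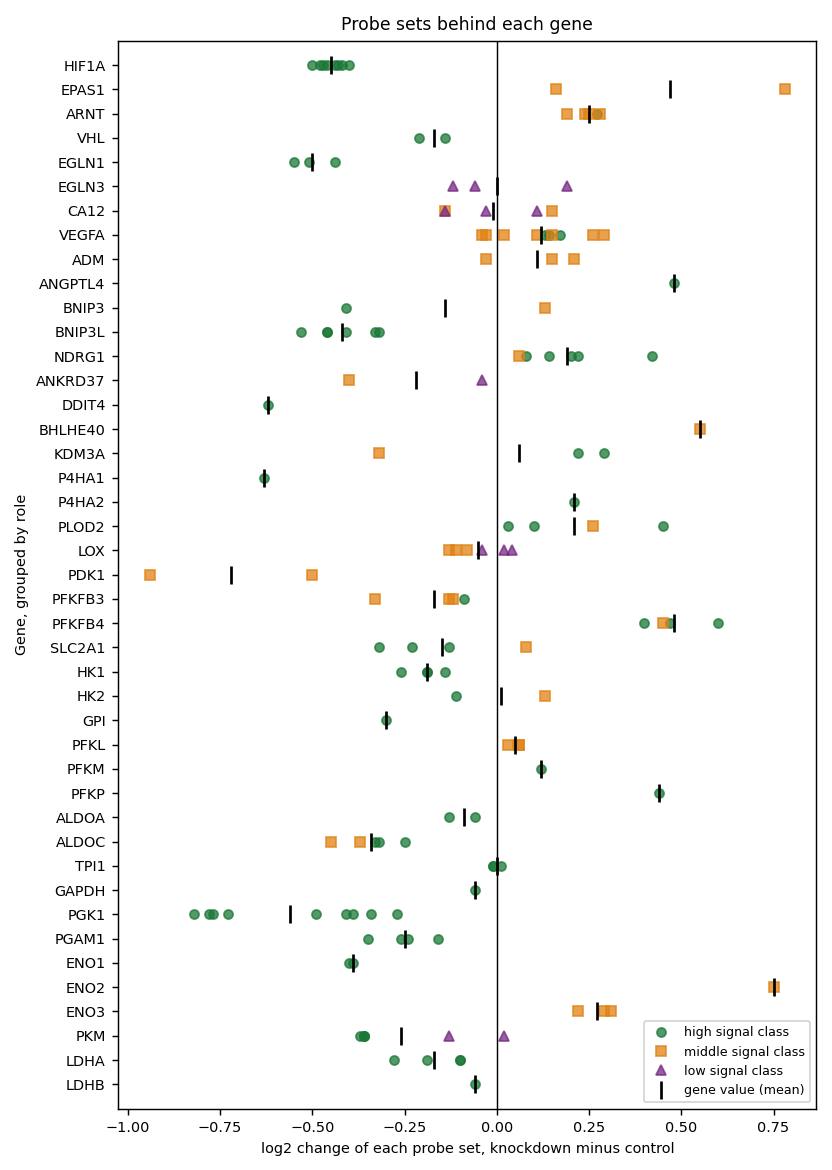
Change of each of the 142 probe sets (log2, knockdown minus control) by gene, with the symbol giving the signal class before centring and the black tick the gene's mean. The 8 probe sets of HIF1A cluster from -0.50 to -0.40, while those of BNIP3 (-0.41 and 0.13) and KDM3A (-0.32 to 0.29) lie on both sides of 0.

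Of the 142 probe sets, 60 fell and 31 rose, where 17.5% and 19.8%, together 37.2%, of all probe sets with 1 symbol did. Probe sets called in opposite directions occurred in 2 genes, BNIP3 and KDM3A.

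Related genes were then set against each other on each array, a difference that no rescaling of an array can alter. All 14 pairs within 10 families were compared, and 13 separated the knockdown from the control arrays without overlap, the exception being PFKM minus PFKL. The pairs were formed after values were seen and reuse genes, 50% of single genes already show no overlap, and the share over all gene pairs was not computed, so the count is a description. An exact permutation test of 3 arrays against 3 cannot go below p = 0.1 (two-sided), which those 13 pairs reached, so none can pass a threshold of 0.05. The widest shift was that of the enolases. ENO2 minus ENO1 was 0.59, 0.62 and 0.51 on knockdown arrays and -0.53, -0.51 and -0.68 on controls, a shift of 1.14 or 2.21-fold. EPAS1 minus HIF1A was 0.48, 0.37 and 0.52 against -0.53, -0.47 and -0.39, a shift of 0.92 or 1.89-fold. For the collagen prolyl hydroxylases, P4HA2 minus P4HA1 averaged 0.44 ± 0.11 (SD, n = 3) against -0.40 ± 0.04 (SD, n = 3), a shift of 0.84. PFKFB4 minus PFKFB3 averaged 0.34 ± 0.03 against -0.31 ± 0.03 (SD, n = 3 each), a shift of 0.65. In each of these 4 pairs 1 gene fell and the other rose. Smaller shifts were those of LDHB against LDHA (0.11), HK2 against HK1 (0.20) and ALDOC against ALDOA (-0.25). 

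**Figure D4:**
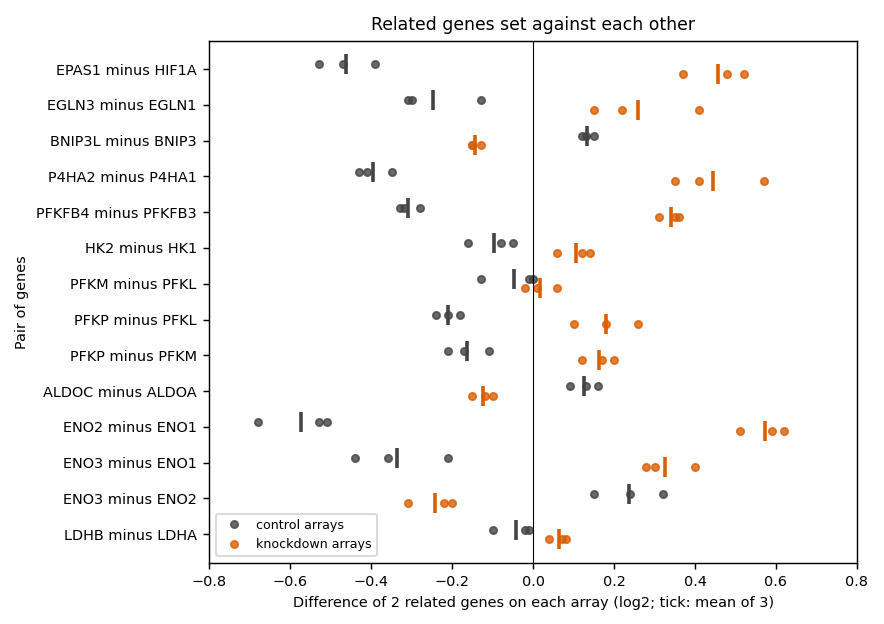
Difference between 2 related genes on each array (log2, first gene minus second), with grey points for the 3 control arrays, orange points for the 3 knockdown arrays and ticks for the means. The groups are apart in 13 of 14 pairs, widest for ENO2 minus ENO1 (means 0.57 and -0.57), and overlap for PFKM minus PFKL.

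The balance of falls and rises itself depended on the scaling. With arrays centred on the hybridization spike-ins 26 of the 43 genes fell and 6 rose, where 50.7% and 9.73% of all genes did (together 60.4%), and with poly-A spike-ins 23 fell and 8 rose, where 34.7% and 13.7% did (together 48.4%). The median of all genes moved to -0.17 and -0.10 in these settings. All 19 falls were kept under both centrings. Of the 12 rises, those of EPAS1, ANGPTL4, BHLHE40, PFKFB4, PFKP and ENO2 were kept under both, and those of ARNT, VEGFA, NDRG1, P4HA2, PLOD2 and ENO3 were lost with hybridization spike-ins. VEGFA, NDRG1, PLOD2 and ENO3 also lost theirs with poly-A spike-ins. LOX, ALDOA, GAPDH and LDHB were newly called lower under both centrings, and CA12, HK2 and TPI1 with hybridization spike-ins.

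**Figure D5:**
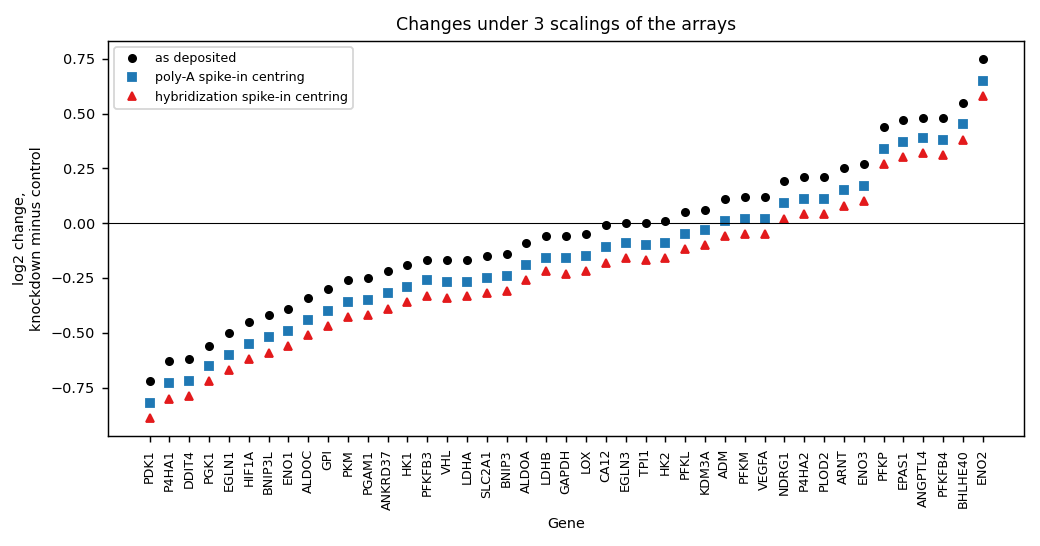
Change of the 43 genes (log2, knockdown minus control), ordered by the change as deposited (black), with arrays recentred on poly-A spike-ins (blue squares) and on hybridization spike-ins (red triangles). Both recentrings lower every gene by a constant, and the 6 genes on the far right from PFKP to ENO2 stay above 0 in all 3, the lowest value being 0.27 for PFKP.

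Other genes of the HIF pathway and of the hypoxia response gave a similar mixture. Of 36 listed genes 34 were measured, 13 fell and 7 rose, with a median of -0.07, so 58.8% were called beside the 40.1% of all genes. With high-class probe sets alone 14 of 17 measured genes were called (82.4%), where 68.5% of all such genes were. The largest falls were those of AK4, a mitochondrial adenylate kinase (-0.80, SE 0.06), SIAH2, a ubiquitin ligase with EGLN3 among its substrates (-0.71, SE 0.04), and HMOX1, haem oxygenase (-0.49, SE 0.06). TFRC, the transferrin receptor, rose by 0.75 (SE 0.04), and INSIG2, a brake on sterol synthesis, and ARNT2, the neural relative of ARNT, each rose by 0.38 (SE 0.06 and 0.05). The 1 unshared probe set of ARNT2 gave -0.04 and did not pass the test. Around VHL, the ligase scaffold CUL2 rose by 0.17 and the adaptor ELOC fell by 0.17, while ELOB (0.04) and RBX1 (-0.06) did not pass the test. HIF1AN, the asparaginyl hydroxylase that blocks coactivator binding, fell by 0.12 and the coactivator CREBBP by 0.23, while the coactivator EP300 stood at 0.01.

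Of 45 further genes of glucose and pyruvate use 40 were measured, 7 fell and 8 rose, a share of 37.5% beside the 40.1% of all genes. PDK4, a relative of PDK1 with the same substrate, rose by 1.12 (SE 0.05, adjusted p = 1.73e-06), a 2.17-fold increase, and PDK2 rose by 0.29 (SE 0.05), opposite to PDK1. Of pyruvate dehydrogenase itself, the subunits PDHA1 and DLAT fell by 0.29 and 0.28, and PDHX rose by 0.28. The monocarboxylate transporter SLC16A7 rose by 0.55 (SE 0.06) and the ADP-dependent glucokinase ADPGK by 0.49 (SE 0.05), although the 1 unshared probe set of ADPGK gave -0.01. TIGAR, a fructose bisphosphatase that lowers glycolytic flux, fell by 0.43 (SE 0.04) and the glucose transporter SLC2A6 by 0.35 (SE 0.04).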

How the data were processed

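Total RNA of 6 A375 samples, 3 with UBE2S knockdown and 3 controls, was biotin-labelled and hybridized to Affymetrix arrays, per the labels' protocols. The labels spell the target both UEB2S and UBE2S, read here as UBE2S. Log2 values were deposited, and the submitters' processing notes name limma, RMA and affy with no version, role or order. The log base is taken from RMA's output. Each probe set had been centred on its median over the 6 arrays (largest absolute median 4.85e-07), a step not described in the sources used here. The genes and lists were chosen with earlier results of these data known.

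Of 49395 probe sets, 102 were array controls, and 44988 carried 1 gene symbol in the array annotation, which stood for 18132 genes. Probe sets of a gene were averaged, without a filter. The difference between knockdown and control was fitted over the 6 arrays with limma 3.58.1 (lmFit, then eBayes; R 4.3.3), unweighted and without a block, and p-values were adjusted by Benjamini-Hochberg over all genes. Standard errors and 95% intervals are the moderated ones, all tests are two-sided, and the fit was tested on simulated data. Between arrays of the same group, the SD of the differences was 0.125 to 0.144, so none was a copy.

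The rounding step of the stored numbers grows with the size they had before centring. It placed 25.7% of probe sets between 8 and 16 before centring (high signal class), 55.5% between 4 and 8 (middle) and 18.9% between 2 and 4 (low). Values happening to lie on a coarser step are placed too high. Alternatives were other choices of probe sets, other centrings, array weights, a robust variance model, the replicate number as a block, the signal classes and leaving out each array. Named with values on every array were the HIF subunits, oxygen sensors and VHL, GAPDH and up to 3 called genes of largest change per role. Up to 3 called genes per direction were named from each further list, and other genes of those lists were named after their values were seen. The related pairs were also formed after values were seen. Promoter windows come from RefSeq, matched by symbol. The use of probe sets of the _at and _a_at kinds alone was added after seeing the data.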

Additional observations from a re-analysis of the deposited data

How the results depend on the processing

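The 19 falls and 12 rises were within 1.5 times of these counts under array median centring, array weights, the robust variance model, the largest-variance probe set, both restrictions by signal class and poly-A spike-in centring. Leaving out each array in turn gave 19 falls each time and 11 or 12 rises. The replicate number as a block gave 19 falls and 11 rises (69.8%, where 36.9% of all genes were called). The call of VEGFA was lost there and no other of the 31 calls. For the further lists the block gave 12 falls and 6 rises (HIF pathway and hypoxia, 52.9%) and 7 falls and 8 rises (glucose and pyruvate, 37.5%). Same-numbered arrays did not deviate together (correlations from -0.062 to -0.014), so no pairing by number was seen. With so few arrays this check cannot show whether same-numbered samples were handled together. Hybridization spike-in centring left 6 rises. Unshared here means the _at kind alone, so the _a_at kind was set aside with the _s_at and _x_at kinds. Such unshared probe sets exist for only 8 of the genes, of which 0 fell and 3 rose. That is 37.5%, where 22.8% of the 8354 genes in that setting were called. Of the 4 called genes among them 2 kept their call. At an unadjusted p under 0.05 limma gave 0 lower and 4 higher among the 8. Probe sets of the _at and _a_at kinds alone, which measure 34 of the genes, gave 11 falls and 11 rises (64.7%, where 36.5% of all genes were called). Of 25 called genes measured this way 4 changed: VEGFA (0.09), NDRG1 (0.10) and PFKFB3 (-0.12) lost their call and BNIP3 turned. This setting was chosen after seeing the data.

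For the further HIF pathway and hypoxia genes, hybridization spike-in centring gave 22 falls and 3 rises (73.5%, where 60.4% of all genes were called). Poly-A spike-in centring gave 20 falls and 4 rises (70.6%, beside 48.4% of all genes). Unshared probe sets, with 16 genes measured, gave 5 falls and 2 rises (43.8%, beside 22.8%). For the further glucose and pyruvate genes, hybridization spike-ins gave 21 falls and 4 rises (62.5%, beside 60.4% of all genes). Poly-A spike-ins gave 12 falls and 6 rises (45%, beside 48.4%). Unshared probe sets, with 17 genes measured, gave 5 falls and 1 rise (35.3%, beside 22.8%). The high signal class, with 12 genes measured, gave 6 falls and 3 rises (75%, beside 68.5%). Among genes called in at least 1 of the settings compared, opposite directions were found for VEGFA (-0.05) and HK2 (-0.16) with hybridization spike-in centring, for KDM3A (-0.32) with the largest-variance probe set, for BNIP3 with unshared probe sets (0.13) and with the _at and _a_at kinds (0.13), and for SLC2A1 (0.08), ARNT2 (-0.04) and ADPGK (-0.01) with unshared probe sets. Genes called in neither setting also changed sign: ADM (-0.06), PFKM (-0.05), PFKL (-0.12), KDM3A (-0.10) and EGLN3 (-0.16) with hybridization spike-ins, HK2 (-0.09), PFKL (-0.05), KDM3A (-0.03) and EGLN3 (-0.09) with poly-A spike-ins, CA12 (0.13) and EGLN3 (-0.12) with unshared probe sets, and CA12 (0.02) and EGLN3 (-0.09) with the _at and _a_at kinds. EGLN3, CA12, HK2, TPI1 and LOX, with values between -0.11 and 0.04, did so in other settings. Fewer probe sets or genes enter these probe set choices, and spike-in centring moves all genes by a constant. Signal over background is unknown for every gene, which limits what can be said of genes read in the low signal class.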
